A study of Mus musculus with 6 samples.

Results

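The lambda light chain locus and the genes of the surrogate light chain share the proximal part of mouse chromosome 16, and their folding was followed by in situ Hi-C, in which each read pair records that 2 pieces of DNA lay close together in a nucleus. The region was taken as every bin that overlaps a fixed stretch of chromosome 16, so that the bins ran from 16599851 to 20100043 of mm10, which gave 35 bins of about 100 kb out of 24067 on the autosomes and 26731 in all. Erg KO cells (Rag1CreT/+;Erg fl/fl, in which Cre had deleted the floxed alleles of the ETS transcription factor Erg) were compared with a CreT control (Rag1CreT/+, Erg intact) and an Erg fl/fl control (Rag1Cre+/+;Erg fl/fl, no Cre), with 2 libraries each. The mice were of a strain labelled C56BL/6. The second library of Erg KO and that of the Erg fl/fl control were of males, and 4 libraries were of females. All cells were B220+ progenitors that had been grown out of lineage-negative marrow over 8 days on OP9 stroma in the presence of SCF, IL7 and FL. In these mice Cre is driven from Rag1, so that deletion is limited to cells that have switched on this lymphoid gene, and the study's own figures place the Erg KO cells at an earlier stage (pre-proB) than the controls (proB). Loss of Erg and developmental stage cannot be told apart in any comparison given here. Nothing in the sources says whether the replicate libraries were from separate cultures as well as separate mice.

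Early B cells that have rearranged the heavy chain gene have no light chain yet. They make a surrogate in its place from the product of Igll1 (lambda5) and a VpreB protein, and the resulting pre-B-cell receptor signals the cell to expand and to open its light chain loci. The lambda locus itself is small in mice, with few V segments lying upstream of J and C segments in duplicated clusters, and is used by a minority of mouse B cells. Between the surrogate genes and lambda lies a gene-dense stretch that corresponds to the human interval lost in DiGeorge syndrome. Beyond lambda lie a group of odorant receptor genes, and then Lamp3, B3gnt5 and Klhl6, the last of which takes part in B-cell receptor signalling.

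The members fell into 5 bins. Igll1 (chr16:16860671-16863985, minus strand) and Vpreb1 (chr16:16868403-16870843, minus strand) shared the bin chr16:16800138-16899967 with Spag6l, Top3b and Ppm1f. Vpreb2 (chr16:17980428-17981273, plus strand) lay 1.10 Mb away in the bin chr16:17900076-17999691 with Ess2, Gsc2 and Slc25a1, which encodes the mitochondrial citrate carrier. The lambda locus covered 3 bins. That of Iglc1 (chr16:19061618-19062071) also held Iglj1, Iglc3, Iglj3p, Iglj3 and Iglv1, the next held Iglc4 and Iglj4, and that of Iglv2 (chr16:19260401-19260859) also held Iglc2, Iglj2 and Iglv3, with every segment on the minus strand. These 3 bins held 0 starts of protein-coding genes and had a GC content of 39.0%, against 43.3% in the Igll1-Vpreb1 bin and 48.3% in the Vpreb2 bin. The other 30 bins were described as blocks named after their genes. These were 2 bins on the Fgd4 side, 10 bins between the surrogate genes, termed the Pi4ka block, 10 bins of Dgcr6 to Hira between Vpreb2 and lambda, 4 bins of odorant receptors and 4 bins of Lamp3 to Klhl24. The region held 80 protein-coding genes in all.

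The sequences around the starts of the 3 surrogate light chain genes are given because Vpreb1 and Vpreb2 are near copies, and a read from a stretch that they share cannot be placed in a single bin. They run from 250 bases before to 50 bases after each start in RefSeq (GRCm38.p6, the patch release of mm10) and lie at chr16:16863936-16864235 (minus strand) for Igll1, chr16:16869206-16869505 (minus strand) for Vpreb1 and chr16:17980315-17980614 (plus strand) for Vpreb2. For Igll1 the start is also that of the gene coordinates above, which are from GENCODE, whereas for Vpreb1 and Vpreb2 the RefSeq start lies 1588 and 137 bases downstream of the GENCODE one, inside the gene as given above. Capitals mark the stretch of 91 bases that is identical in Vpreb1 (-94 to -4 from its RefSeq start) and Vpreb2 (-238 to -148), and in Igll1 the only match in these windows to CCCNNGGG, the core recognised by the B-lineage factor EBF1.
Igll1: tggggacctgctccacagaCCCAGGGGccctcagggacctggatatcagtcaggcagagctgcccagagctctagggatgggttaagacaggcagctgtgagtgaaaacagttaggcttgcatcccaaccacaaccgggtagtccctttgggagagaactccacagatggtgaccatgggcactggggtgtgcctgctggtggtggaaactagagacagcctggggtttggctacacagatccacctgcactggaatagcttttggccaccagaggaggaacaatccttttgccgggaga
Vpreb1: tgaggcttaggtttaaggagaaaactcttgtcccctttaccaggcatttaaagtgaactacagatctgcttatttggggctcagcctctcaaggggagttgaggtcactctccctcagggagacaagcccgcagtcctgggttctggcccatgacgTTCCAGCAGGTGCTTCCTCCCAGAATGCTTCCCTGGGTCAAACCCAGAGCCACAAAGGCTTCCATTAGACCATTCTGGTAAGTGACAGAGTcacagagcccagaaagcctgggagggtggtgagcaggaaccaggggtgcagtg
Vpreb2: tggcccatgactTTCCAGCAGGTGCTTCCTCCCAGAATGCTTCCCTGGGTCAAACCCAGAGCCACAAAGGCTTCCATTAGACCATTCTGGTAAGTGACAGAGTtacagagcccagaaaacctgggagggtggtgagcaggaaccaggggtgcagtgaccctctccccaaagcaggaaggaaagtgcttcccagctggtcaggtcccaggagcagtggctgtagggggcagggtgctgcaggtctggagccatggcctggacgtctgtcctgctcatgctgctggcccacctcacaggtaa
On either strand, CCCNNGGG occurred in 13.7% of 32851 such windows, the E-box CANNTG in 72.3% and AGGAAG, which contains the GGAA core of ETS factors, in 35.4%. In the shared stretch an E-box and a match to AGGAAG on the opposite strand lay next to each other without overlapping, at -88 and -82 in Vpreb1 and at -232 and -226 in Vpreb2. A match of letters is a description and does not show that a factor binds there. Over whole bins, 0.198% of positions in the Igll1-Vpreb1 bin began an 80-base sequence, the length of the reads, that also occurs in the Vpreb2 bin. The shares were higher with lambda, at 1.16% for the Iglc1 bin, 1.46% for the Iglc4 bin and 0.266% for the Iglv2 bin.

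The recombination signals beside the lambda segments, where RAG proteins cut, are given because they are the sites that light chain joining brings together within the 3 lambda bins. Capitals mark the heptamer and the nonamer, and all 5 signals shown are on the minus strand of GRCm38.p6, at chr16:19084978-19085016 for Iglv1, chr16:19260362-19260400 for Iglv2, chr16:19241168-19241206 for Iglv3, chr16:19063263-19063290 for Iglj1 and chr16:19067079-19067106 for Iglj3.
Iglv1: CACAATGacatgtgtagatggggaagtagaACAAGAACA
Iglv2: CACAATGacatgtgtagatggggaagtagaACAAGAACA
Iglv3: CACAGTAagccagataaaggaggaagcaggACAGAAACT
Iglj1: GTTTTTTGCatgagtctatatCACAGTG
Iglj3: GGTTTAGGGttgggtttcagtCACTGTG
Heptamer and nonamer lay 23 bases apart beside the V segments and 12 bases apart beside Iglj1 and Iglj3. The signals of Iglv1 and Iglv2 were identical over 39 bases, and that of Iglv3 differed from Iglv1 at 16 of them. Iglv1 shares its bin with Iglj1 and Iglj3, and Iglv2 shares its bin with Iglj2. Contacts within those pairs of segments fell in the counts of a bin with itself.

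The 6 libraries held between 29014581 and 68085468 read pairs, and the 2 Erg KO libraries 58335904 and 57259415. The shallowest was Erg fl/fl control replicate 2, which stood apart from the other controls at lambda, as given with each result below. Among read pairs that began in the region, 43.9% ± 1.27 joined it to another chromosome in Erg KO and 33.4% ± 3.08 in the controls (SD, n = 2 and 4), against 35.1% and 25.7% over all autosomal bins. All 35 bins passed the filter on total contacts. Hi-C counts show neither RNA nor, in bins of this size, the deletion in Erg. Of 26 genes outside the region that belong to the pre-B-cell receptor, its signalling, recombination or the transcription factors of early B cells, 25 lay in bins with a positive compartment score, the side of active chromatin, in both Erg KO and controls.

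Contacts inside the region were fewer in Erg KO. Of 429 bin pairs that could be tested, 113 fell and 3 rose against both controls (edgeR quasi-likelihood test, adjusted over all 431490 autosomal bin pairs), which is 27.0% of them, against 12.7% called among all autosomal bin pairs and 6.26% called lower. The median log2 fold change was -0.43 and 365 of the 429 estimates were below 0. Read pairs between any bins of the region, over the mean at the same distances on all autosomes of the same library, were 1.07 and 1.13 in the Erg KO libraries, 1.28 and 1.24 in the CreT control and 1.31 and 1.45 in Erg fl/fl controls. The Erg KO libraries thus lay below all 4 controls, with a log2 difference of -0.26 (two-sided exact permutation test, p = 0.0667, n = 2 against 4, with 15 splits). This is the smallest p that 2 against 4 libraries allow, so no exact test given here could reach 0.05.

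Against the CreT control alone 60 pairs were called, 56 of them lower, with 7.16% called among all pairs, and against the Erg fl/fl control alone 112 were called, 110 of them lower, with 9.4% called among all pairs. These comparisons share the Erg KO libraries. When the CreT control was set against the Erg fl/fl control, edgeR called 0 of the 429 pairs, with 0.000232% called among all pairs, 35 under an unadjusted p of 0.05 and a median log2 difference of -0.10. With offsets for the coverage of bins 2512 of all 431490 autosomal bin pairs were called, 1595 of them lower. The number of calls in the region, like that over all pairs, depended on single libraries and on the coverage of bins. It was 0 when Erg KO replicate 1 was left out, 8 when Erg KO replicate 2 was, 27 when Erg fl/fl control replicate 2 was, and 10 with offsets for the coverage of each bin.

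The decreases followed the layout of the region. Among sets of over 20 tested pairs, the medians were lowest between the Dgcr6 to Hira block and lambda or the bins on its far side, where 13 of 25 tested pairs with the odorant receptor bins fell (median log2 fold change -1.09), 10 of 33 with Lamp3 to Klhl24 (-0.88) and 10 of 26 with the lambda bins themselves (-0.79). Within Dgcr6 to Hira 23 of 55 pairs fell (-0.33), within the Pi4ka block 17 of 55 (-0.34) and between these blocks 17 of 96 (-0.39). The Pi4ka block met the Fgd4 side less in 6 of 19 pairs (-0.84). Between the lambda bins and the odorant receptor bins edgeR called 0 of 12 pairs, with 0 under an unadjusted p of 0.05 and a median of 0.03. By distance, 56 of 165 pairs under 0.5 Mb were called, 42 of 140 from 0.5 to 1 Mb and 18 of 124 at 1 Mb or more. The medians were -0.22, -0.62 and -0.48, with 131, 138 and 96 estimates below 0. The counts of calls thus do not rank the changes by size. Shares by distance over all autosomal pairs are not given here. The 3 pairs that rose were odorant receptor bins with themselves, and did not pass as rises with coverage or GC offsets. The largest of them, in the bin of Olfr165 and Olfr166, had 180 and 164 normalised read pairs in Erg KO, 131 and 130 in the CreT control and 141 and 110 in the Erg fl/fl control (log2 fold change 0.47, SE 0.12, edgeR adjusted p = 0.00196). With coverage offsets the medians within Dgcr6 to Hira, within the Pi4ka block and between them were -0.06, -0.06 and -0.004. There 0, 0 and 1 pairs passed. With offsets for GC content these medians were -0.03, -0.05 and -0.08. Under coverage offsets Dgcr6 to Hira kept medians of -0.88 with the odorant receptors, -0.58 with Lamp3 to Klhl24 and -0.55 with lambda. Of these pairs 4, 0 and 3 passed. Within the odorant receptor bins 0 of 10 pairs passed with coverage offsets (median -0.06). With offsets for GC content 1 of the 10 passed, which was lower (-0.30).

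**Figure D1:**
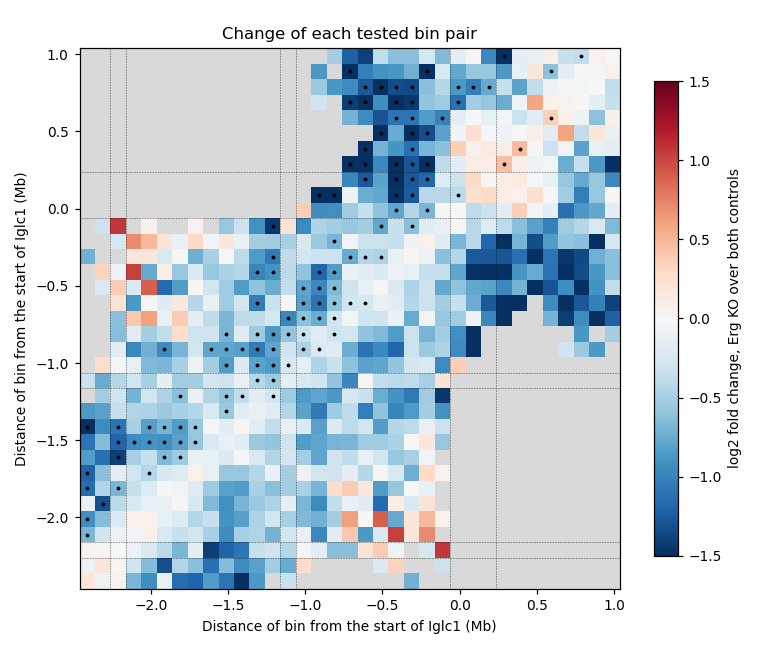
Log2 fold change of each tested bin pair, Erg KO over both controls (colour), by the distance of both bins from the start of Iglc1 in Mb; dots mark pairs with an edgeR adjusted p under 0.05, grey pairs were not tested and dotted lines bound the Igll1-Vpreb1, Vpreb2 and lambda bins. Many of the strongest decreases lie between Dgcr6 to Hira, just left of lambda, and the bins on the other side of it, where 13 of 25 pairs with the odorant receptor bins fell.

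The 10 called pairs with the smallest p, among bins that do not adjoin, all lay between the Igll1-Vpreb1 bin and lambda. All 10 had lower values in both Erg KO libraries than in every control. This adds no support, since the pairs were picked by p from the same counts. The first of them straddled Vpreb2. The bin of Dgcr2 and the testis kinases Tssk1 and Tssk2 on one side met the bin of Dgcr6 and Prodh on the other in 117 and 130 normalised read pairs in Erg KO, 178 and 175 in the CreT control and 194 and 296 in the Erg fl/fl control (log2 fold change -0.85, SE 0.11, edgeR adjusted p = 7.13e-09). The Vpreb2 bin between them was also met less by the Dgcr2 bin, with 189 and 224 in Erg KO, 282 and 262 in the CreT control and 266 and 339 in the Erg fl/fl control (log2 fold change -0.55, SE 0.09, edgeR adjusted p = 4.68e-06). Of the 10, 5 joined the Pi4ka block with Dgcr6 to Hira and 3 lay within the Pi4ka block. The largest change among them, of -1.19 (SE 0.22, edgeR adjusted p = 1.88e-05), joined the bin of Rtn4r, a receptor that limits axon growth, with that of Gp1bb and Sept5. There 25.6 and 40.3 normalised read pairs were counted in Erg KO, 72.3 and 51.2 in the CreT control and 70.4 and 85.0 in the Erg fl/fl control.

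Pairs with a member bin numbered 102, of which 24 fell and 0 rose, 4 of 23 for Igll1-Vpreb1, 5 of 24 for Vpreb2 and 15 of 56 for lambda, against 12.7% called and 6.26% called lower among all autosomal bin pairs. With offsets for the coverage of bins 4 of the 102 passed, of which 3 involved lambda, 1 Igll1-Vpreb1 and 0 Vpreb2. With offsets for GC content 13 passed, of which 12 involved lambda, 1 Igll1-Vpreb1 and 0 Vpreb2. Of all 431490 autosomal bin pairs 2512 were called with coverage offsets and 10190 with GC offsets. The 4 called pairs of the Igll1-Vpreb1 bin were all with bins of the Pi4ka block. With the bin of Pi4ka, Snap29, Crkl and Aifm3 it had 14.7 and 14.2 normalised read pairs in Erg KO, 27.0 and 33.5 in the CreT control and 34.0 and 51.9 in the Erg fl/fl control (log2 fold change -1.41, SE 0.30, edgeR adjusted p = 0.000322). Pi4ka makes a phosphoinositide and Crkl is a signalling adaptor. Around Vpreb2 the changes were smaller, at -0.25 to -0.98 in its 5 called pairs. Of the lambda pairs, the lowest p was that of the Iglv2 bin with the bin of Gp1bb and Sept5. It had 14.8 and 9.85 normalised read pairs in Erg KO, 23.1 and 21.6 in the CreT control and 26.8 and 64.7 in the Erg fl/fl control (log2 fold change -1.55, SE 0.33, edgeR adjusted p = 0.000238). The groups did not overlap, and Erg fl/fl control replicate 2 had the highest value by far. These pairs were taken from the called ones after their values were seen.

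On the rest of chromosome 16, 60 pairs with a member bin were tested and 6 fell, with 0 that rose, against 12.7% called and 6.26% called lower among all autosomal bin pairs, so that the count does not set the members apart. Those that met the rule for naming both joined lambda to genes just beyond the region. The Iglv2 bin and the bin of Parl, a mitochondrial protease, and Cyp2ab1 (chr16:20300460-20400147) had 8.50 and 15.4 normalised read pairs in Erg KO, 27.8 and 17.8 in the CreT control and 22.7 and 32.2 in the Erg fl/fl control (log2 fold change -1.23, SE 0.35, edgeR adjusted p = 0.00824). The Iglc1 bin and the bin of Yeats2 (chr16:20100040-20200002), which encodes a reader of acylated histones, had 14.9 and 11.0 in Erg KO, 25.4 and 18.5 in the CreT control and 26.9 and 33.6 in the Erg fl/fl control (log2 fold change -0.997, SE 0.33, edgeR adjusted p = 0.0304). With coverage offsets 0 of the 60 passed.

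Contacts between the surrogate light chain genes and lambda were few. The Igll1-Vpreb1 bin met the Vpreb2 bin in 14 and 13 read pairs in Erg KO, 26 and 18 in the CreT control and 21 and 18 in the Erg fl/fl control. Over the mean at that distance, these were 1.10 and 1.07 in Erg KO, 1.48 and 1.05 in the CreT control and 1.57 and 1.54 in Erg fl/fl controls. A log2 difference of -0.36 was within the spread of the controls (exact permutation test, p = 0.333, n = 2 against 4), and edgeR gave -0.44 (SE 0.34, adjusted p = 0.439). The bins of the genes that together encode the surrogate light chain thus met at or above the average for their distance in every library, and a change was not detectable at this depth. The same held for all bins of the region together, at 1.07 to 1.45, and for the Pi4ka block with Vpreb2, at 1.27 to 1.79.

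Igll1-Vpreb1 and lambda, over 2 Mb apart, met in 16 and 21 read pairs in Erg KO, 17 and 11 in the CreT control and 13 and 8 in the Erg fl/fl control. Over the mean at these distances the values were 0.950 and 1.30 in Erg KO, 0.747 and 0.494 in the CreT control and 0.781 and 0.542 in Erg fl/fl controls. The Erg KO values lay above all 4 controls, with a log2 difference of 0.82 (exact permutation test, p = 0.133, n = 2 against 4). The part of sequences shared by these bins in this value was not tested. Vpreb2 and lambda went the other way, with 9 and 15 read pairs in Erg KO, 26 and 28 in the CreT control and 17 and 24 in the Erg fl/fl control. Over the mean at their distances these were 0.258 and 0.453 in Erg KO, 0.545 and 0.602 in the CreT control and 0.467 and 0.750 in the Erg fl/fl control. Here the Erg KO values lay below all 4 controls, with a log2 difference of -0.77 (exact permutation test, p = 0.0667, n = 2 against 4), which was -1.17 with only Erg KO replicate 1 in its group and -0.36 with only Erg KO replicate 2. No bin pair of these 2 sets was abundant enough for the edgeR test. A lack of overlap between Erg KO and controls was also common elsewhere. For runs of 3 neighbouring autosomal bins, met with bins at the offsets of the region, 20.4% of values showed it upwards and 16.7% downwards. The lack of overlap thus does not set either of these 2 sets apart.

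Inside the lambda locus contacts, taken as a sum, did not differ beyond the spread of the controls. Summed over its bin pairs they were 0.894 and 0.967 of the mean at these distances in Erg KO, 0.913 and 0.792 in the CreT control and 1.08 and 1.09 in the Erg fl/fl control (log2 difference -0.05, exact permutation test, p = 0.933, n = 2 against 4). With offsets for GC content edgeR called 3 of the 6 bin pairs of lambda, all lower (median log2 fold change -0.32). Of all 431490 autosomal bin pairs 10190 were then called. With coverage offsets 0 of the 6 were called (-0.12). Without either 1 of the 6 was called (0.01). The Iglc1 and Iglc4 bins met in 89.1 and 97.8 normalised read pairs in Erg KO, 116 and 101 in the CreT control and 129 and 139 in the Erg fl/fl control (log2 fold change -0.40, SE 0.14, edgeR adjusted p = 0.0428). The pair of the Iglc4 and Iglv2 bins had an estimate of 0.30 (SE 0.11, edgeR adjusted p = 0.0596), with 182 and 172 in Erg KO, 148 and 123 in the CreT control and 167 and 150 in Erg fl/fl controls. The counts of a bin with itself, in which joining of Iglv1 to Iglj1 and of Iglv2 to Iglj2 would fall, differed by -0.01 (SE 0.10) in the Iglc1 bin and 0.03 (SE 0.11) in the Iglv2 bin on the log2 scale, with adjusted p of 0.975 and 0.884 (edgeR). Total contacts of the lambda bins, as a log2 ratio to the bins within 2 Mb on either side, were -0.32 and -0.40 in Erg KO, -0.52 and -0.55 in the CreT control and -0.39 and -0.48 in the Erg fl/fl control (difference 0.13, exact permutation test, p = 0.2, n = 2 against 4).

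**Figure D2:**
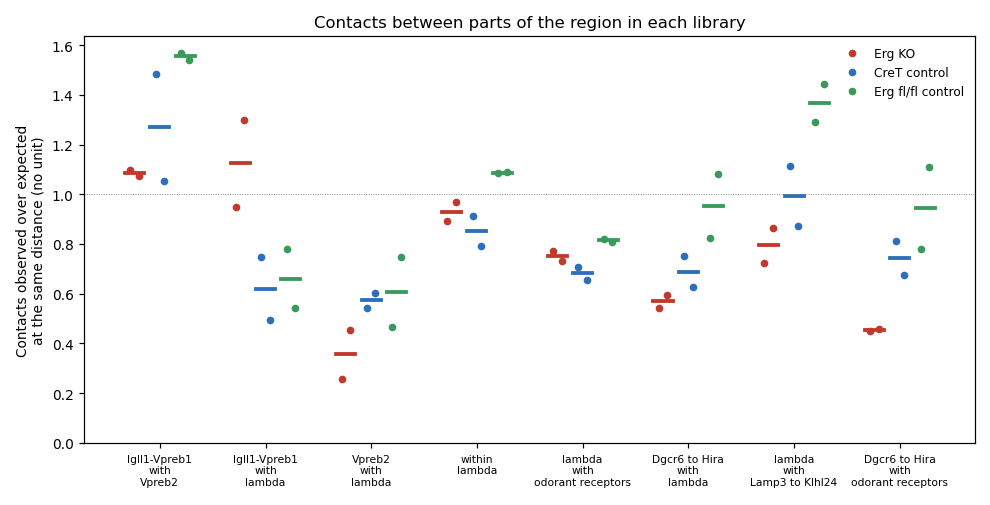
Read pairs between parts of the region over the mean at the same distances on all autosomes of the same library (no unit), for 2 libraries a group as points and their mean as a bar. Of the 8 sets shown, the Erg KO values lie above all controls for Igll1-Vpreb1 with lambda (0.950 and 1.30), and below all controls for Vpreb2 with lambda (0.258 and 0.453) and for the last 3 sets on the right.

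Seen from the 3 lambda bins, values were lower over much of Dgcr6 to Hira and in 2 of the 4 bins of Lamp3 to Klhl24. They overlapped in the odorant receptor bins and in most of the Pi4ka block. Of the 32 other bins of the region, 11 met lambda less in both Erg KO libraries than in any control and 2 met it more, as ratios to the mean at their distance. Over all runs of 3 neighbouring autosomal bins, with bins at the same offsets, 16.7% of values were below and 20.4% above every control in both Erg KO libraries. The 11 were 7 of the 10 bins of Dgcr6 to Hira, 2 of the 4 of Lamp3 to Klhl24, the Vpreb2 bin and the Dgcr2 bin beside it, and 0 of the 4 odorant receptor bins. The 2 that met lambda more were the bin of Fgd4 and the Igll1-Vpreb1 bin. Summed over Dgcr6 to Hira, the ratios were 0.542 and 0.596 in Erg KO, 0.751 and 0.627 in the CreT control and 0.823 and 1.08 in the Erg fl/fl control (log2 difference -0.50, exact permutation test, p = 0.133, n = 2 against 4). For the odorant receptors they were 0.772 and 0.733 in Erg KO, 0.709 and 0.655 in the CreT control and 0.819 and 0.810 in the Erg fl/fl control (log2 difference 0.01, exact permutation test, p = 1, n = 2 against 4). The single bin of the gene Hira, which encodes a histone chaperone, and of Cdc45, a replication factor, met lambda at 0.386 and 0.468 in Erg KO, 0.699 and 0.487 in the CreT control and 0.673 and 0.979 in Erg fl/fl controls. The odorant receptors themselves met Dgcr6 to Hira at 0.451 and 0.458 in Erg KO, 0.813 and 0.676 in the CreT control and 0.778 and 1.11 in the Erg fl/fl control (log2 difference -0.87, exact permutation test, p = 0.0667, n = 2 against 4).

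**Figure D3:**
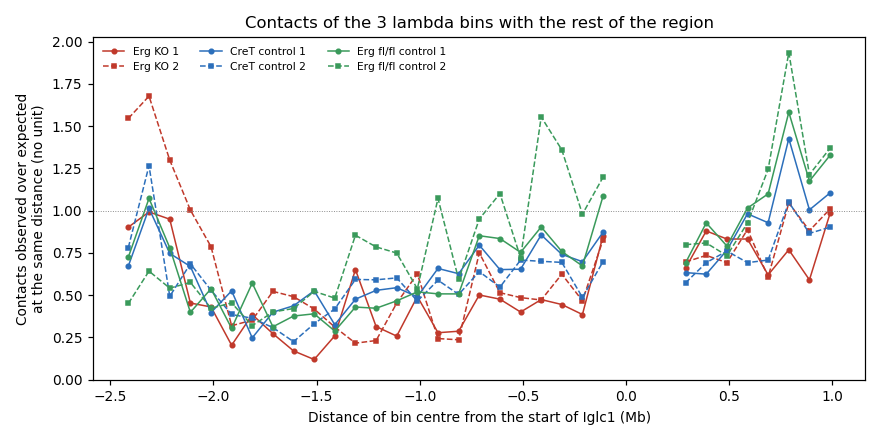
Contacts of the 3 lambda bins with each other bin of the region over the mean at the same distance (no unit), per library, by distance of the bin centre from the start of Iglc1 in Mb. Left of lambda the Erg KO lines run below the controls over 7 of the 10 bins of Dgcr6 to Hira, and Erg fl/fl control 2 is the highest line over much of that block.

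Compartment scores place a bin with the active, gene-rich part of its chromosome (above 0) or with the inactive part (below 0), in units of the SD over the chromosome. The surrogate light chain genes lay deep in the active part in all 6 libraries. The Vpreb2 bin scored 1.46 and 1.38 in Erg KO, 1.39 and 1.39 in the CreT control and 1.45 and 1.46 in the Erg fl/fl control, with a difference of 0.00 (SE 0.03, limma adjusted p = 0.966). The Igll1-Vpreb1 bin scored 0.89 and 0.98 in Erg KO, 1.00 and 1.08 in the CreT control and 1.06 and 1.02 in Erg fl/fl controls. The groups did not overlap, but the difference of -0.11 (SE 0.04) did not pass (limma adjusted p = 0.2). It was -0.03 when Erg KO replicate 1 was left out, and with uncentred scores it was -0.28 and passed (limma adjusted p = 0.0417). Uncentred scores were lower in Erg KO over the whole genome, with a median difference of -0.12 and all 35 bins of the region below 0. Of 23649 autosomal bins 1874 were called lower and 113 higher in that setting, so the pass does not set this bin apart. The bin of Ypel1, in the Pi4ka block, differed by 0.06.

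The lambda locus sat on the slope between the active block of Vpreb2 and Hira and an inactive block centred on the odorant receptors. The Iglc1 bin scored 0.05 and -0.01 in Erg KO, 0.36 and 0.15 in the CreT control and 0.47 and 0.87 in Erg fl/fl controls. The Iglc4 bin scored -0.55 and -0.53 in Erg KO, -0.25 and -0.38 in the CreT control and 0.04 and 0.64 in Erg fl/fl controls. The Iglv2 bin scored -0.80 and -0.74 in Erg KO, -0.61 and -0.68 in the CreT control and -0.26 and 0.31 in the Erg fl/fl control. Scores thus fell in every library along the locus, the bin of Iglv1 and Iglc1 having the highest and that of Iglv2 and Iglv3 the lowest, and both Erg KO libraries were below every control in all 3 bins. The differences of -0.48 (SE 0.12), -0.63 (SE 0.13) and -0.54 (SE 0.11) did not pass (limma adjusted p = 0.0901, 0.0673 and 0.0696). They were -0.77, -0.98 and -0.86 when Erg KO replicate 1 was left out. When either library of a male was left out, the difference was -0.42 in the Iglc4 bin and -0.35 in the Iglv2 bin. Whether they passed depended on which library was left out. With uncentred scores the Iglc4 and Iglv2 bins passed. In that setting 1874 of 23649 autosomal bins were called lower and 113 higher, and the median over all bins was -0.12. The controls were far apart, since Erg fl/fl control replicate 2 alone placed the whole locus above 0. The mean over the 3 bins was -0.44 and -0.43 in Erg KO, -0.17 and -0.31 in the CreT control and 0.08 and 0.61 in the Erg fl/fl control (difference -0.49, exact permutation test, p = 0.2, n = 2 against 4), and the difference was -0.30 without Erg fl/fl control replicate 2. The mean score of Igh, the heavy chain locus, differed by as much, at -0.49, so that lambda less Igh averaged -0.43 in both Erg KO and the controls (difference 0.00, exact permutation test, p = 1, n = 2 against 4). Lambda less Igk, the kappa light chain locus, averaged 0.62 ± 0.02 in Erg KO and 0.83 ± 0.18 in the controls (SD, difference -0.20, exact permutation test, p = 0.133, n = 2 against 4).

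Changes in compartment score that passed lay at the edges of the region. In all, 6 of 35 bins fell and 0 rose, against 4.31% called among all autosomal bins and 2.15% called lower, and the count was 0 with the sex term left out of the model or without either CreT control library. Of the 6, 5 were the bins from the last odorant receptors to the end of the region. The bin of Olfr170 and Olfr171 scored -0.51 and -0.21 in Erg KO, 0.32 and 0.23 in the CreT control and 0.15 and 0.80 in the Erg fl/fl control. Its difference of -0.85 (SE 0.09, limma adjusted p = 0.039) was the 4th lowest of 23649 bins. The bin of Lamp3, whose product sits in lysosomes, and of B3gnt5, whose product builds glycolipids, scored -0.05 and 0.59 in Erg KO, 0.96 and 0.85 in the CreT control and 0.78 and 1.10 in the Erg fl/fl control, with a difference of -0.77 (SE 0.08, limma adjusted p = 0.039). The Klhl6 bin scored 0.62 and 1.03 in Erg KO, 1.26 and 1.24 in the CreT control and 1.10 and 1.25 in the Erg fl/fl control, with a difference of -0.46 (SE 0.06, limma adjusted p = 0.0439). The last bin, of Klhl24, differed by -0.23 (SE 0.03, limma adjusted p = 0.0453). At the other end, the bin between Fgd4 and Spag6l differed by -0.28 (SE 0.04, limma adjusted p = 0.0432), and the first bin, of Fgd4, by -0.29 (SE 0.05, limma adjusted p = 0.0577). In all 6 bins that passed, the groups did not overlap, which adds no support, since the bins were picked by p from the same scores. Over the region 15 bins were below and 1 above every control in both Erg KO libraries, against 12.4% and 15.3% of all bins. The mean score of 24 genes of stromal cells, the kind of feeder on which the cells grew, was 0.39 and 0.17 in Erg KO, 0.13 and 0.13 in the CreT control and 0.25 and 0.23 in the Erg fl/fl control, and 3 of the 24 passed, all higher. The part of feeder DNA in these results was not tested.

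**Figure D4:**
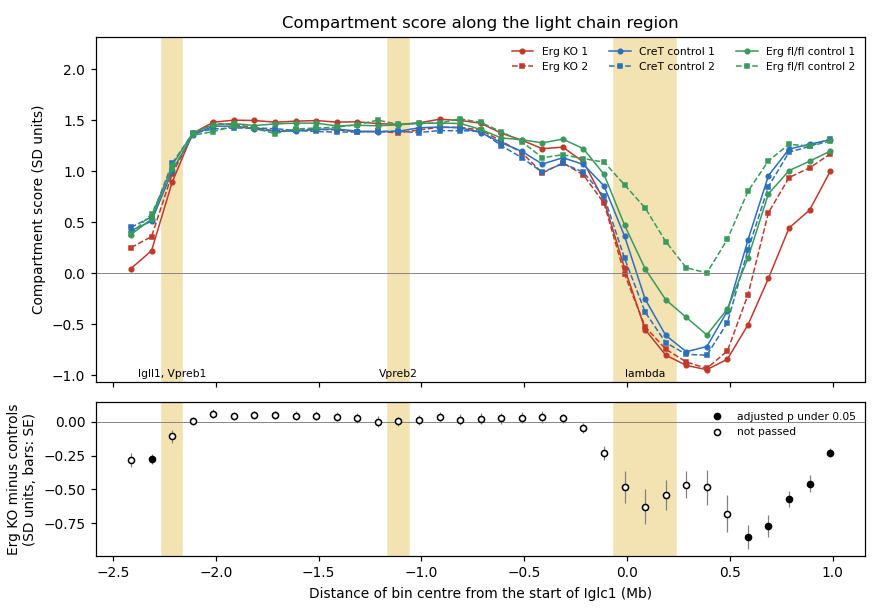
Compartment score (SD units) of each bin in each library (top) and the difference of Erg KO from both controls with its SE (bottom; filled where the limma adjusted p is under 0.05), by distance of the bin centre from the start of Iglc1 in Mb; shading marks the Igll1-Vpreb1, Vpreb2 and lambda bins. Scores are alike in all libraries at Vpreb2 (1.38 to 1.46), drop across lambda, and are lowest in Erg KO over lambda and beyond it, with Erg fl/fl control 2 as the highest over lambda and the odorant receptors.

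The partners of lambda on chromosome 16 shifted likewise. With 485 bins of the inactive part, lambda had 1.34 and 1.26 times the contacts expected for their distances in Erg KO, 1.02 and 1.11 in the CreT control and 1.00 and 0.699 in Erg fl/fl controls. With 430 bins of the active part the ratios were 0.970 and 0.935 in Erg KO, 0.943 and 0.938 in the CreT control and 1.03 and 1.06 in the Erg fl/fl control. Vpreb2 met the inactive bins at 0.376 and 0.422 in Erg KO, 0.437 and 0.397 in the CreT control and 0.341 and 0.364 in Erg fl/fl controls. The bins were assigned from scores of the same contacts, so these ratios restate the scores and carry no test. Contacts of lambda with Igh and Igk on other chromosomes were too few to compare, with 15 read pairs in Erg KO and 22 in the controls for Igh and 13 in Erg KO and 23 in the controls for Igk.

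The insulation score gives the contacts that cross a bin, between the 500 kb on its left and the 500 kb on its right, as a log2 ratio to those expected, so that a low value marks a boundary. It fell in all 35 bins, with differences of -0.33 to -1.10 and a median of -0.60, and both Erg KO libraries lay below every control in each of them. Among all autosomal bins 64.5% were called and 32.1% called lower, and 33.3% had both Erg KO libraries below every control. For bins as active as most of the region the share is higher. Of autosomal bins with a mean control compartment score above 1, 78.3% were called lower, and of those that also had over 45% GC, 88.1%.

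The deepest change of the region, without correction for GC content, lay at the edge of lambda. In the bin between Hira and Iglc1 (chr16:18899911-19000068), which holds no start of a protein-coding gene, insulation was -1.10 and -0.90 in Erg KO, -0.12 and -0.35 in the CreT control and -0.14 and 0.56 in Erg fl/fl controls. The difference of -1.10 (SE 0.12, limma adjusted p = 0.000639) ranked 54th from the lowest of 23337 bins. The Iglc1 bin followed with -0.89 and -0.78 in Erg KO, 0.08 and -0.22 in the CreT control and -0.0017 and 0.65 in the Erg fl/fl control (difference -1.05, SE 0.13, limma adjusted p = 0.000653). Differences were -0.92 in the bin of Hira, -0.83 in the Iglc4 bin and -0.69 in the Iglv2 bin. In the CreT control and in Erg fl/fl control replicate 1 this edge was a shallow dip, in Erg fl/fl control replicate 2 it lay above 0, and in Erg KO it held the lowest value of the region. The Igll1-Vpreb1 bin had -0.59 and -0.37 in Erg KO, 0.09 and 0.02 in the CreT control and 0.18 and 0.43 in the Erg fl/fl control, with a difference of -0.72 (SE 0.07, limma adjusted p = 0.000639). In the Vpreb2 bin, which lies inside a block of many contacts, insulation was 0.55 and 0.66 in Erg KO, 1.10 and 1.02 in the CreT control and 1.01 and 1.46 in the Erg fl/fl control (difference -0.61, SE 0.09, limma adjusted p = 0.00109).

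Total contacts of the gene-dense bins were lower in Erg KO. As a log2 ratio to the autosomal median they differed by -0.17 in the Pi4ka block, -0.16 in Vpreb2 and -0.18 in Dgcr6 to Hira, and by -0.01 in lambda and 0.02 in the odorant receptors. When contacts were divided by the coverage of both bins, 4400 of 23337 autosomal bins passed for insulation, 2137 of them lower. In the region 19 of 35 bins passed. These were all 3 lambda bins, all 4 of the odorant receptors, all 4 of Lamp3 to Klhl24, the Igll1-Vpreb1 bin, and 3 of 10 in each of the Pi4ka block and Dgcr6 to Hira. The edge before lambda then differed by -0.80, the Iglc1 bin by -0.79 and the Igll1-Vpreb1 bin by -0.45, and the Vpreb2 bin by -0.03 (limma adjusted p = 0.794). With the GC trend removed 25 of 35 bins passed, against 9169 of 23337 autosomal bins, 4837 of them lower. The differences were then -1.27 in the Iglc1 bin, -0.99 in the Iglc4 bin, -1.02 in the Iglv2 bin and -1.02 at the edge before lambda. That of Vpreb2, at -0.19, did not pass (limma adjusted p = 0.059). With 300 kb in place of 500 kb on either side the Iglv2 bin differed by -0.27.

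**Figure D5:**
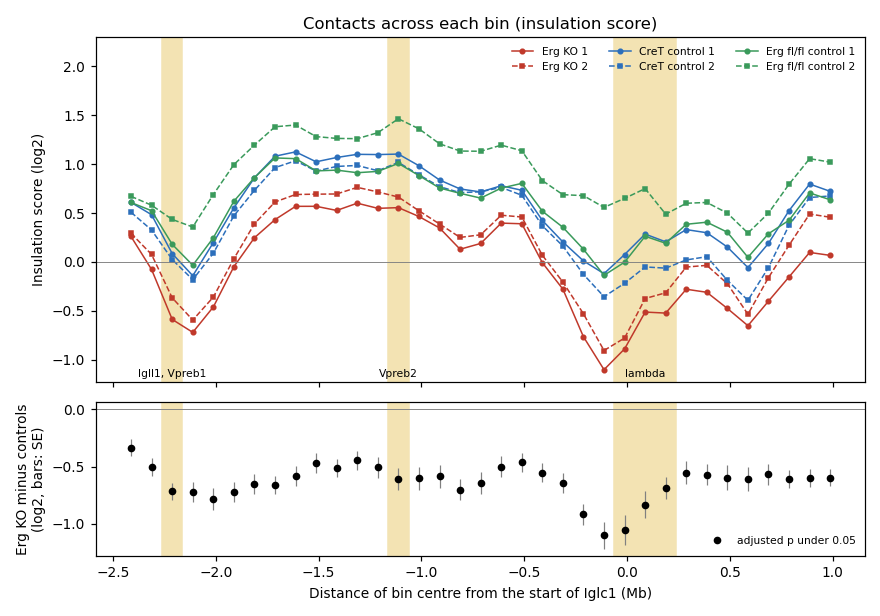
Insulation score (log2) of each bin in each library (top) and the difference of Erg KO from both controls with its SE (bottom; all 35 bins with a limma adjusted p under 0.05), by distance of the bin centre from the start of Iglc1 in Mb. Both Erg KO lines lie below every control throughout, and without correction for GC content the difference is largest, at -1.10, in the bin just left of lambda.

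Local contacts, those of a bin with bins 200 kb to 2 Mb away, were also lower in all 35 bins (edgeR, adjusted over all bins), with differences of -0.21 to -0.70 on the log2 scale and a median of -0.45. Among all autosomal bins 67.6% were called and 33.2% called lower, and 79.4% of those with a control compartment score above 1 and 95.0% of those that also had over 45% GC were called lower. In CPM (counts scaled to library size), the Igll1-Vpreb1 bin had 43.1 and 45.6 in Erg KO, 48.8 and 48.8 in the CreT control and 50.8 and 53.8 in Erg fl/fl controls, the smallest change of the region (-0.21, SE 0.06, edgeR adjusted p = 0.00496). The Vpreb2 bin had 44.4 and 45.4 in Erg KO, 56.2 and 53.1 in the CreT control and 51.5 and 62.9 in the Erg fl/fl control (-0.35, SE 0.07, edgeR adjusted p = 8.98e-05). In 34 of the 35 bins both Erg KO libraries lay below every control, against 33.7% of all bins, and the exception was the Iglc1 bin. It had 28.8 and 35.0 in Erg KO, 38.3 and 32.6 in the CreT control and 44.6 and 53.8 in the Erg fl/fl control (-0.46, SE 0.08, edgeR adjusted p = 2.97e-05). The Iglv2 bin had 28.7 and 30.1 in Erg KO, 37.8 and 32.7 in the CreT control and 43.7 and 55.0 in the Erg fl/fl control (-0.55, SE 0.08, edgeR adjusted p = 6.1e-06). The largest change, of -0.70 (SE 0.09, edgeR adjusted p = 8.82e-07), was that of the odorant receptor bin next to lambda, of Olfr164. With offsets for the coverage of bins, the changes of the 3 lambda bins were -0.37, -0.45 and -0.51 and passed. Those of Igll1-Vpreb1 (-0.09) and Vpreb2 (-0.11) did not pass. In that setting 10570 of 23649 autosomal bins were called, 3459 of them lower.

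Other genes of the pre-B-cell receptor and of early B-cell identity gave a reference for these values. In compartment score limma called 0 of 26 such genes, with a median difference of -0.03. Insulation fell in 22 of them, with a median of -0.40 against -0.60 over the region, and local contacts fell in 21 and rose in 1, with a median of -0.28 against -0.45 over the region. Over all autosomal bins each of these medians was between 0.00 and 0.01. Of autosomal bins with a mean control compartment score above 1, 78.3% were called lower in insulation, with a median of -0.39. In local contacts 79.4% of such bins were called lower, with a median of -0.31. The counts and medians of the 26 genes thus do not set them apart from active bins. The 24 stromal genes had 10 higher and 8 lower in insulation and 9 higher and 9 lower in local contacts. The list was picked with results of these data known and is given as a description.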

How the data were processed

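Raw counts of read pairs for each pair of bins were deposited by the authors, 1 matrix per library, with a list of bins built of whole restriction fragments. Their methods name diffHic for alignment to mm10, after which duplicates, unligated ends and overlong fragments were removed. Bins ended at the ends of 19 of 19 autosomes of GRCm38.p6, and genes were placed by GENCODE M21. Autosomal bins with 0.3 to 3 times the median total were kept (23649 of 24067). A bin pair was tested if it held at least 10 read pairs and 5 times the abundance of inter-chromosomal contacts at 500 kb. The edgeR 4.0.16 (R 4.3.3) quasi-likelihood model held group and sex, offsets came from loess over abundance, and the Benjamini-Hochberg adjustment ran over all pairs (threshold 0.05). Normalised read pairs are counts divided by those offsets. The filter and the offsets of diffHic were written anew. Tested on simulated data, the test recovered 76.5% of 200 bin pairs changed by 2 on the log2 scale among 431490.

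Compartment scores were the component, of the first 3, closest to gene density when smoothed observed over expected contacts of a chromosome were correlated in each library, and were compared with limma 3.58.1, as was insulation over 5 bins on either side. Differences from the models are adjusted for sex and can deviate from those of the printed means. Local contacts were compared with edgeR after TMM scaling. Contacts between parts were compared by an exact permutation test over 15 splits. Intervals of 1 library were not given, since 2 libraries a group limit the precision more than read depth does. Named were the members, their neighbours, the bins with the largest changes, the 10 called pairs with the smallest p and called member pairs on the rest of chromosome 16 with a mean count of at least 20. Members, lists and tests were chosen with earlier results of these data known. Uncentred scores, insulation divided by coverage or with its GC trend removed, and coverage offsets for local contacts were added after seeing the data. Alternatives also included DESeq2 1.42.0, GC and coverage offsets, thinning to equal depth, other filters and windows, and leaving out each library. Same-numbered libraries did not deviate together (r of -0.07 to 0.08 between groups), so the numbers pair nothing. Python 3.11.15 was used for the rest. Sex chromosomes and bins that failed the filter were not used here. Some sequences and genes of the region are not reported here.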

Additional observations from a re-analysis of the deposited data

Results flagged for a closer look

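In the contact of the Igll1-Vpreb1 bin with the Vpreb2 bin, CreT control replicate 2 lay far below the other controls. Erg KO had 1.10 and 1.07 times the mean at that distance, CreT control replicate 2 had 1.05, CreT control replicate 1 had 1.48 and the Erg fl/fl control had 1.57 and 1.54. The value rests on 18 read pairs. Without that library the log2 difference between Erg KO and the controls was -0.50, and with it -0.36. Chance marks about 1 in 20 groups in this way, and 34 groups of controls were checked.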

How the results depend on the processing

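Of the 116 called bin pairs of the region, the number was 10 with offsets for bin coverage, 44 with offsets for GC content, 66 without the sex term, 67 with a replicate block in its place, 59 after thinning to equal depth, 0 with DESeq2 (78 at an unadjusted p under 0.05) and between 0 and 127 with a library left out. For the 6 called pairs of member bins with the rest of chromosome 16 it was 0 with coverage offsets, 2 without the sex term, 3 with the replicate block, 3 with an abundance filter of 10 times, 3 with a count minimum of 20 alone, 0 with DESeq2 and 0 to 8 with a library left out. For the 6 bins called in compartment score it was 0 without the sex term, 0 with the replicate block, 12 with uncentred scores and 0 to 14 with a library left out. Leaving out a male library lets the sex term take up the other, so that Erg KO then rests on 1 library. The 35 bins called in insulation numbered 19 with contacts divided by coverage, against 15055 and 4400 of 23337 autosomal bins. Over all 431490 bin pairs the 55009 calls became 2512 with coverage offsets, 10190 with GC offsets and 31 with DESeq2. They were 26277 without the sex term, 26989 with the replicate block and 25517 after thinning. Over 23649 bins the 1019 calls in compartment score became 0 without the sex term or with the replicate block, and 1987 with uncentred scores. The counts of the region thus moved with those of all autosomes. Vpreb2 with lambda ranged from -1.17 to -0.36 with a library left out. The coverage difference of lambda was 0.0096 for contacts with other chromosomes only, and that of lambda less Igk was -0.016 without smoothing. The cause of these differences was not tested. With offsets for GC content 34 of the 44 called pairs of the region were lower. Within Dgcr6 to Hira only 1 of 6 called pairs was then lower, and within the Pi4ka block 1 of 5. Without these offsets every called pair within these blocks was lower. Among single bins, named pairs and lists, 380 values stayed on their side of the threshold or within 1.5 times the count, 56 lost and 16 gained the threshold and 4 moved. Same-numbered libraries share only a number. Contacts over 1 Mb with under 30 read pairs a library limit what can be seen between the surrogate genes and lambda.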
